A study of Mus musculus with 12 samples.

Results

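Hepatic de novo lipogenesis was examined through 10 genes, which are the enzymes *Acly*, *Acaca*, *Acacb*, *Fasn*, *Scd1*, *Elovl6* and *Me1*, the transcription factors *Srebf1* and *Mlxipl*, and the lipogenic regulator *Thrsp*. They were chosen with earlier results of these data known and were found by their symbols in the gene table. The counts of members below therefore describe these genes and are no test of the set. Each symbol had 1 row among the 48795 genes of the table, and all 10 were among the 13812 genes with enough counts to be tested. In fasted livers, 7 of the 10 genes were lower than in fed livers of mice labelled *Nts*+/+, and 8 of 10 were lower in mice labelled *Nts*-/-, whereas the log2 fold change of *Me1* was 0.040 and -0.040. Over all tested genes, 9.19% and 9.14% were lower when fasted in these comparisons. No member passed the test between genotype labels in either feeding state, beside 0% of all tested genes.

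De novo lipogenesis turns surplus carbohydrate into fatty acids. ATP citrate lyase (*Acly*) releases acetyl-CoA from citrate in the cytosol, the acetyl-CoA carboxylases (*Acaca* and *Acacb*) make malonyl-CoA from it, and fatty acid synthase (*Fasn*) builds palmitate from these units with NADPH, part of which comes from malic enzyme (*Me1*). ELOVL6 lengthens palmitate and SCD1 inserts a double bond. In the liver the pathway is known to follow feeding: insulin acts largely through SREBP-1c, a product of *Srebf1*, and glucose through ChREBP, the product of *Mlxipl*.

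The livers came from female mice aged 4 months on normal chow, either fed ad libitum or fasted for 22 h, with 3 mice in each of 4 groups. The groups were *Nts*+/+ fed (mice 254, 257 and 323), *Nts*+/+ fasted (265, 282 and 322), *Nts*-/- fed (277, 303 and 319) and *Nts*-/- fasted (284, 290 and 295). *Nts* encodes the gut peptide neurotensin, the knockout affects the whole body, and both genotypes were littermates bred from heterozygotes. All libraries carry the batch year 2015. The deposited values are expected counts, which estimate the reads of each gene, may be fractional and are not scaled between mice.

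Counts of *Nts* were found only under the *Nts*-/- label, which these labels would not lead one to look for. The paper places neurotensin in the central nervous system and in enteroendocrine cells of the small intestine. A count of 0 in liver therefore need not conflict with the *Nts*+/+ label, but this does not account for counts under the *Nts*-/- label. *Nts* had 0 counts in all 6 libraries labelled *Nts*+/+, but 46, 40 and 15 counts in the fed and 12, 4 and 18 counts in the fasted libraries labelled *Nts*-/-. A count of 0 allows up to 3 counts, or 0.0833 to 0.136 CPM (counts scaled to the size of the library) in those libraries, counting error alone being covered. Whether the genotype labels were exchanged or the knockout allele gives reads was not tested, and these cannot be told apart here. With exchanged labels, the sign of every difference between genotypes would be reversed. Genotype is therefore given throughout as the label of the library. Which part of the transcript the knockout allele retains is not given in the sources used here.

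Total counts were 21999656 to 45273081 per mouse. Fed and fasted livers were separated along the first principal component of all tested genes, which held 41.7% of the variance. Hepatocyte markers summed to 113727 to 138016 CPM in every mouse. Markers of adipocytes, another lipogenic cell type, summed to 15.1 to 21.1 CPM, with *Lep* and *Retn*, 2 of the 7 markers, at 0 in all mice and *Adipoq* at no more than 0.212 CPM. Endothelial markers (5 genes) summed to 126 to 181 CPM in fed against 97.1 to 122 CPM in fasted livers. Among them *Lyve1* went the other way in mice labelled *Nts*+/+ (5.77 to 6.98 CPM fed, 12.4 to 14.4 CPM fasted) and overlapped in mice labelled *Nts*-/-. Cholangiocyte markers (5 genes) summed to 33.9 to 50.5 against 13.3 to 27.7 CPM. Most of this sum was *Spp1* (28.4 to 44.2 CPM fed, 10.4 to 23.8 CPM fasted), and each of the other markers overlapped between fed and fasted livers. Stellate cell markers (5 genes) summed to 185 to 282 CPM in fed against 174 to 188 CPM in fasted livers. Kupffer cell markers (5 genes) were highest in fed mice labelled *Nts*+/+, at 404 to 479 CPM, against 189 to 347 CPM in fasted mice of that label and 252 to 375 CPM and 241 to 380 CPM in fed and fasted mice labelled *Nts*-/-. The part of these cells in the differences below was not tested. In bulk liver, fewer cells of a type and less RNA per cell cannot be told apart.

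The promoters of 4 members are shown because these genes were lower in fasted livers under at least 1 label and stand for the regulator, the first enzyme, the synthase and the cofactor of the pathway. Each window holds the 250 bases before the transcript start of RefSeq on GRCm38.p6, on the strand of the gene. Of the 10 members, 9 had an entry, with 13 starts in all. Capitals mark matches, on either strand, to the CCAAT box (CCAAT), the GC box (GGGCGG) and the direct repeat bound by liver X receptors (LXR), in which only the fixed letters of its repeated elements GGTNA and GGTCA, with 5 free bases between them, are in capitals. *Srebf1* lies at chr11:60210472-60210721 on the minus strand, *Fasn* at chr11:120824548-120824797 on the minus strand, *Acly* at chr11:100528001-100528250 on the minus strand and *Thrsp* at chr7:97417551-97417800 on the minus strand.
Srebf1: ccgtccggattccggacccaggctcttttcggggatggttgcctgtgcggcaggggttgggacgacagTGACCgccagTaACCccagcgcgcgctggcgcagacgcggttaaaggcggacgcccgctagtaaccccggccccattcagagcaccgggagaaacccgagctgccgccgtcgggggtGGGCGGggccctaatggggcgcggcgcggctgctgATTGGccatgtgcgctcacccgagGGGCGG
Fasn: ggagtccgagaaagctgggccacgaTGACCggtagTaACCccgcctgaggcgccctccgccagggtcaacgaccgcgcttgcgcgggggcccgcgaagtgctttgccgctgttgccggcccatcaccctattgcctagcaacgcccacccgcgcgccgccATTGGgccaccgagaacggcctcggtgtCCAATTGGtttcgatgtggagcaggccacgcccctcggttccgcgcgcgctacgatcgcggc
Acly: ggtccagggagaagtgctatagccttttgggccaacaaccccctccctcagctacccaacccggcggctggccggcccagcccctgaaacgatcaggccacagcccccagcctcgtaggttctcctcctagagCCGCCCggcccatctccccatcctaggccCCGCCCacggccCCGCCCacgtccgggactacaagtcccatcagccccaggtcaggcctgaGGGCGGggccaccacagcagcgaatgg
Thrsp: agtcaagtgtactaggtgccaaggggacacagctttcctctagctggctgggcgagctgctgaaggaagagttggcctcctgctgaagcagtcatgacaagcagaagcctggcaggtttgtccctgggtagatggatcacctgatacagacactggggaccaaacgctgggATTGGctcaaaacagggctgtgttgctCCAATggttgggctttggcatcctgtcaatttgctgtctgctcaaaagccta

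The LXR repeat was found in 2 of the 13 windows of the members, 1 of *Srebf1* and that of *Fasn*, and in 0.177% of all 32851 RefSeq windows of this length; it was added to the search after these windows had been read. The CCAAT box was found in 7 of the 13 windows of the members and in 33.8% of all windows. In *Fasn* it was matched 3 times, of which a pair on opposite strands overlaps (CCAATTGG), and in *Thrsp* it was matched 2 times. *Acly* holds 4 GC boxes, a motif found in 5 of the 13 windows of the members and in 32.7% of all windows. The sterol regulatory element (TCACNCCAC, in 1.05% of all windows) and the E-box (CACGTG, in 6.02%) were each matched in *Mlxipl* only. *Acaca*, *Elovl6* and *Mlxipl* were also lower in fasted livers, under both labels, but their windows are not shown. Those of *Acaca* and *Elovl6* held no match to any of these motifs. Of the 3 windows of *Srebf1*, only that with the LXR repeat is shown. The windows describe the sequence and say nothing of binding in these livers. The 4 windows belong to the gene-level values that follow, and for *Srebf1*, which has 3 starts in RefSeq, gene-level counts do not tell its transcripts apart.

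To ask how the pathway responds to fasting, fasted and fed mice were compared within each genotype label. In mice labelled *Nts*+/+, 7 of 10 members were lower when fasted, 0 were higher and 3 did not pass (*Acacb*, *Me1* and *Thrsp*). Over all tested genes, 18.1% passed in this comparison, 9.19% as lower and 8.91% as higher. In mice labelled *Nts*-/-, 8 of 10 members were lower, 0 were higher, and *Acacb* and *Me1* did not pass. Over all tested genes, 16.8% passed there, 9.14% as lower and 7.70% as higher. The median log2 fold change of the members was −1.74 in mice labelled *Nts*+/+ and −2.38 in mice labelled *Nts*-/-, beside medians of −0.0032 and −0.011 over all tested genes. Each fasting comparison contrasts the mice of its own label, but the spread was estimated from all 12 mice, so the comparisons are not independent tests. In both, 7 of 10 members passed, beside 1481 of the 13812 tested genes. The test was the quasi-likelihood test of edgeR on all 12 mice, with *p* values adjusted by Benjamini-Hochberg over all 13812 genes. Values below are TMM-normalized CPM, and log2 fold changes are given with their SE (n = 3 mice per group).

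Ranges of the 3 fed and 3 fasted mice did not overlap for 9 members in mice labelled *Nts*+/+, all lower when fasted, a pattern found for 17.9% of all tested genes. They did not overlap, and were lower when fasted, for 8 members in mice labelled *Nts*-/-, beside 18.1% of all tested genes in that direction.

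**Figure D1:**
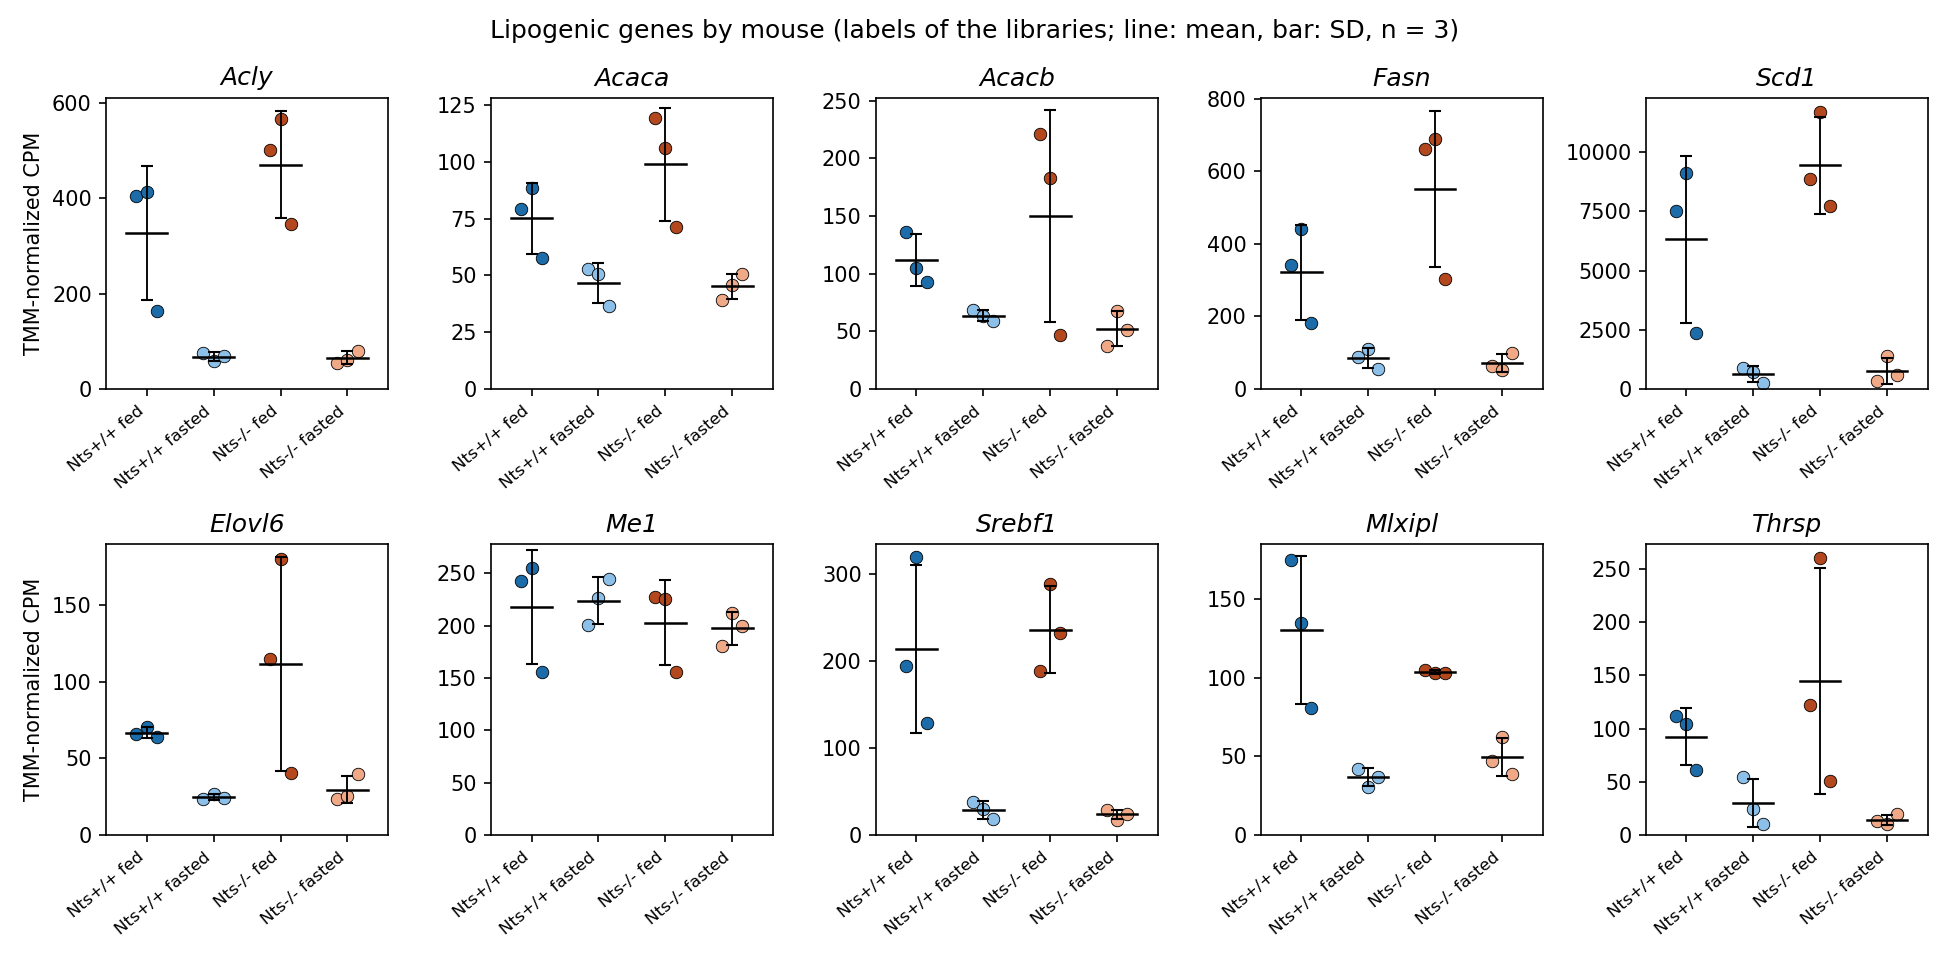
TMM-normalized CPM (vertical axis, linear from 0) of the 10 lipogenic genes in each of the 12 mice, by group label; points are mice, lines are means and bars are SD (n = 3). *Scd1* lay at 2361 to 11725 CPM in fed and at 229 to 1370 CPM in fasted livers, while the *Me1* groups overlapped.

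*Srebf1* (ENSMUSG00000020538, chromosome 11, 60199089 to 60222581, GRCm38) encodes SREBP-1, the factor through which insulin raises lipogenic genes. In mice labelled *Nts*+/+ it stood at 194, 319 and 129 CPM fed and at 37.9, 30.1 and 18.2 CPM fasted. In mice labelled *Nts*-/- it stood at 188, 288 and 232 CPM fed and at 28.5, 17.8 and 24.5 CPM fasted. Every fasted mouse was far below every fed mouse, with the lowest fed mouse 3.41 and 6.60 times above the highest fasted mouse. *Srebf1* was 7.47-fold lower when fasted in mice labelled *Nts*+/+ (log2 fold change −2.90, SE 0.37, adjusted *p* = 0.000622) and 10.0-fold lower in mice labelled *Nts*-/- (−3.32, SE 0.38, adjusted *p* = 0.000254).

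*Mlxipl* (ENSMUSG00000005373, chromosome 5, 135089890 to 135138382) encodes ChREBP, the glucose-responsive factor of the pathway. It stood at 175, 135 and 80.9 CPM in fed and 42.1, 30.7 and 37.2 CPM in fasted mice labelled *Nts*+/+. In mice labelled *Nts*-/- the fed values were close together, at 105, 103 and 103 CPM, and the fasted values were 46.9, 62.5 and 38.8 CPM. Fed and fasted mice were separate under both labels. The fall was 3.56-fold in mice labelled *Nts*+/+ (log2 fold change −1.83, SE 0.25, adjusted *p* = 0.000549) and 2.10-fold in mice labelled *Nts*-/- (−1.07, SE 0.24, adjusted *p* = 0.0107).

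*Thrsp* (ENSMUSG00000035686, chromosome 7, 97412938 to 97417730), also called Spot 14, is a small nuclear protein known to be induced with the lipogenic enzymes. Mice labelled *Nts*+/+ had 112, 104 and 61.4 CPM fed and 54.6, 24.7 and 10.2 CPM fasted. Mice labelled *Nts*-/- had 122, 261 and 51.2 CPM fed and 12.8, 10.5 and 19.8 CPM fasted. Its fed and fasted groups stood apart by a narrow margin in mice labelled *Nts*+/+ and by a wider one in mice labelled *Nts*-/-. Its log2 fold change did not pass in mice labelled *Nts*+/+ (−1.64, SE 0.70, adjusted *p* = 0.144) and passed in mice labelled *Nts*-/- (−3.32, SE 0.75, adjusted *p* = 0.0175), where the call was lost without mouse 284 (adjusted *p* = 0.0678) or mouse 290 (adjusted *p* = 0.0727).

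*Acly* (ENSMUSG00000020917, chromosome 11, 100476353 to 100528000) makes the cytosolic acetyl-CoA from which fatty acids are built. Mice labelled *Nts*+/+ had 405, 413 and 164 CPM fed and 75.8, 58.4 and 68.2 CPM fasted. Mice labelled *Nts*-/- had 502, 566 and 346 CPM fed and 54.1, 61.2 and 80.3 CPM fasted. Fasted mice lay in one narrow band under both labels, well below all fed mice, while fed mouse 323 was well below the other fed mice of its group. *Acly* was 4.85-fold lower when fasted in mice labelled *Nts*+/+ (log2 fold change −2.28, SE 0.32, adjusted *p* = 0.000906) and 7.22-fold lower in mice labelled *Nts*-/- (−2.85, SE 0.33, adjusted *p* = 0.000213).

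*Acaca* (ENSMUSG00000020532, chromosome 11, 84129672 to 84401651) encodes the cytosolic carboxylase whose malonyl-CoA feeds synthesis. It stood at 79.1, 88.3 and 57.9 CPM in fed and 52.8, 50.4 and 36.7 CPM in fasted mice labelled *Nts*+/+, and at 120, 106 and 71.2 against 39.2, 45.6 and 50.5 CPM in mice labelled *Nts*-/-. The groups did not overlap, but the changes were the smallest of those that passed under the *Nts*+/+ label. *Acaca* was 1.61-fold lower in fasted mice labelled *Nts*+/+ (log2 fold change −0.69, SE 0.21, adjusted *p* = 0.0371) and 2.19-fold lower in mice labelled *Nts*-/- (−1.13, SE 0.21, adjusted *p* = 0.00313). The first call was lost without mouse 254, 257, 265, 282 or 322, each left out in turn (adjusted *p* between 0.0501 and 0.134), and kept without mouse 323 (adjusted *p* = 0.0184).

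*Acacb* (ENSMUSG00000042010, chromosome 5, 114146535 to 114250761) encodes the mitochondrial carboxylase, known for the malonyl-CoA that restrains fatty acid entry into mitochondria. Mice labelled *Nts*+/+ had 136, 105 and 92.7 CPM fed and 68.1, 63.1 and 58.5 CPM fasted, without overlap. Fed mice labelled *Nts*-/- had 221, 183 and 46.5 CPM, and fasted ones 37.4, 67.9 and 51.0 CPM, so that fed mouse 319 lay among the fasted mice. The log2 fold change passed under neither label (−0.82, SE 0.46, adjusted *p* = 0.254 for *Nts*+/+ and −1.53, SE 0.47, adjusted *p* = 0.0514 for *Nts*-/-). It passed in mice labelled *Nts*-/- without mouse 319 (−1.95, adjusted *p* = 0.000200), and in mice labelled *Nts*+/+ when the spread was estimated from those 6 mice alone (−0.82, adjusted *p* = 0.00956).

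*Fasn* (ENSMUSG00000025153, chromosome 11, 120805846 to 120824547), the multi-enzyme synthase of palmitate, stood at 340, 441 and 181 CPM in fed and 88.1, 110 and 54.3 CPM in fasted mice labelled *Nts*+/+. In mice labelled *Nts*-/- it stood at 660, 688 and 304 CPM fed and at 62.3, 51.9 and 98.6 CPM fasted. Again mice 323 and 319 had the lowest fed values of their groups, and both remained above all fasted mice. *Fasn* was 3.81-fold lower when fasted in mice labelled *Nts*+/+ (log2 fold change −1.93, SE 0.43, adjusted *p* = 0.0126) and 7.76-fold lower in mice labelled *Nts*-/- (−2.96, SE 0.45, adjusted *p* = 0.00175).

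*Scd1* (ENSMUSG00000037071, chromosome 19, 44394451 to 44407709), the desaturase that makes oleate and palmitoleate, had the largest fitted decrease of the 10 members under both labels. Fed mice labelled *Nts*+/+ had 7509, 9115 and 2361 CPM and fasted ones 869, 724 and 229 CPM. Fed mice labelled *Nts*-/- had 8876, 11725 and 7744 CPM and fasted ones 324, 1370 and 597 CPM. Levels varied several-fold within the fasted groups too, yet the groups were separate. *Scd1* was 10.4-fold lower in mice labelled *Nts*+/+ (log2 fold change −3.38, SE 0.72, adjusted *p* = 0.0123) and 12.4-fold lower in mice labelled *Nts*-/- (−3.63, SE 0.73, adjusted *p* = 0.00967). The gene alone took 0.242% to 1.25% of all counts in fed and 0.0234% to 0.134% in fasted mice. Its counts were fractional in 11 of 12 mice, and some of its reads may be shared with other genes, which makes its level uncertain.

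*Elovl6* (ENSMUSG00000041220, chromosome 3, 129532355 to 129638495), the elongase of palmitate, was nearly the same in all mice of each *Nts*+/+ group, at 65.9, 70.5 and 63.8 CPM fed and 23.3, 27.0 and 23.9 CPM fasted. Fed mice labelled *Nts*-/- spread widely, at 115, 180 and 40.4 CPM, and fasted ones had 23.6, 25.3 and 39.7 CPM. Fed mouse 319 was just above the highest fasted mouse. *Elovl6* was 2.70-fold lower when fasted in mice labelled *Nts*+/+ (log2 fold change −1.43, SE 0.43, adjusted *p* = 0.0438) and 3.77-fold lower in mice labelled *Nts*-/- (−1.92, SE 0.43, adjusted *p* = 0.0143). The SE is shared by all 4 groups, and the first call was lost without any one of its 6 mice (adjusted *p* between 0.0729 and 0.111) but had an adjusted *p* of 0.000261 when those 6 mice were fitted alone. The second call was lost without mouse 284 (adjusted *p* = 0.0585) or 290 (adjusted *p* = 0.0627), and when its 6 mice were fitted alone (adjusted *p* = 0.0857).

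*Me1* (ENSMUSG00000032418, chromosome 9, 86581371 to 86695953), the cytosolic malic enzyme that supplies NADPH, was the exception. It stood at 243, 255 and 156 CPM in fed and 200, 226 and 245 CPM in fasted mice labelled *Nts*+/+, and at 228, 225 and 156 against 181, 212 and 199 CPM in mice labelled *Nts*-/-. The fed and fasted groups overlapped under both labels. The log2 fold change was 0.040 (SE 0.19, 95% confidence interval −0.37 to 0.45, adjusted *p* = 0.908) in mice labelled *Nts*+/+ and −0.040 (SE 0.19, interval −0.45 to 0.37, adjusted *p* = 0.913) in mice labelled *Nts*-/-. Its counts were fractional in 8 of 12 mice, so that some of its reads may be shared with other genes.

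**Figure D2:**
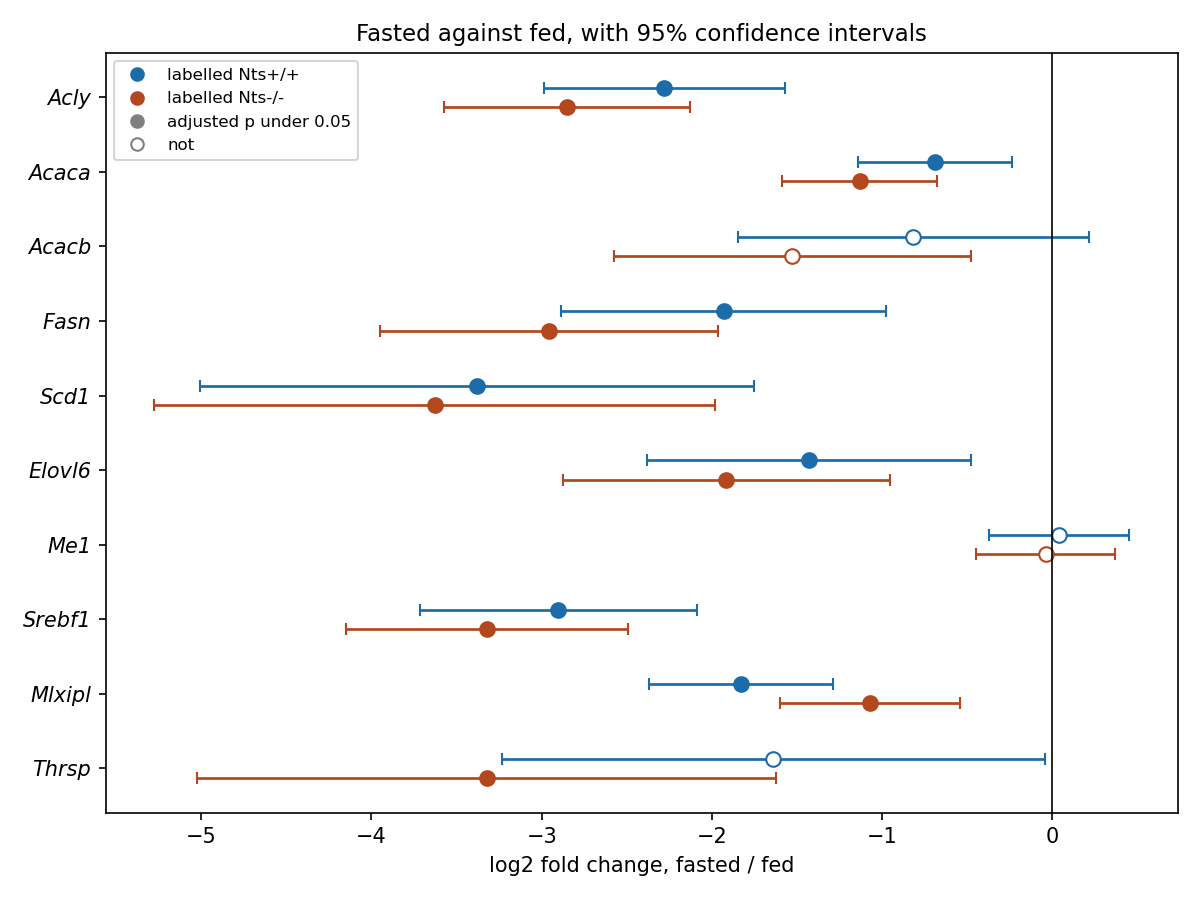
Log2 fold change of fasted over fed livers (horizontal axis) of the 10 lipogenic genes for mice labelled *Nts*+/+ (blue) and *Nts*-/- (orange), with 95% confidence intervals from edgeR; filled points have an adjusted p under 0.05. All intervals lie below 0 except those of *Me1* and that of *Acacb* in mice labelled *Nts*+/+.

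Relative abundance was compared between genes as mean CPM per kb of the longest GENCODE vM39 transcript. The counts are per gene and do not show which transcript was present, so the order depends on this choice of length. Other lengths were not tested. In fed mice labelled *Nts*+/+, *Scd1* stood at 1253 ± 699 CPM per kb (SD, n = 3), with no overlap with the next gene. Then came *Thrsp* (66.0 ± 19.3 CPM per kb), *Me1* (52.1 ± 12.9), *Srebf1* (49.2 ± 22.2), *Acly* (39.9 ± 17.3), *Fasn* (29.7 ± 12.1) and *Mlxipl* (25.7 ± 9.31), each overlapping its neighbour in range. *Acacb* (12.2 ± 2.45 CPM per kb), *Elovl6* (10.9 ± 0.555) and *Acaca* (7.89 ± 1.64) were the lowest. The order changed with fasting: in fasted mice labelled *Nts*+/+, *Me1* (53.5 ± 5.34 CPM per kb) stood second after *Scd1* (120 ± 66.5), which it overlapped, and above *Thrsp* (21.3 ± 16.2). The other 7 genes lay between 4.03 and 8.23 CPM per kb, with *Srebf1* at 6.60 ± 2.27, each overlapping the next. In fasted mice labelled *Nts*-/-, *Scd1* (151 ± 107 CPM per kb) and *Me1* (47.2 ± 3.71) were likewise first and second, without overlap there.

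Whether genotype label changes the pathway was asked in fed and in fasted mice. In fed mice, 0 of 10 members passed (edgeR, adjusted *p* from 0.777 to 0.957), beside 0% of all tested genes, and 0 members had an unadjusted *p* under 0.05, beside 876 of 13812 genes. DESeq2 also called 0 members. The estimate was above 0 for 8 members, with a median log2 fold change of 0.48 beside 0.010 over all genes. *Fasn* was 1.72-fold higher in mice labelled *Nts*-/- (log2 fold change 0.78, SE 0.42, interval −0.15 to 1.71), and *Elovl6* 1.67-fold (0.74, SE 0.42, interval −0.19 to 1.68). These intervals include 0 and also include differences of more than 3-fold. *Mlxipl* (−0.33, SE 0.24, interval −0.85 to 0.19) and *Me1* (−0.10, SE 0.19, interval −0.51 to 0.31) were the members with estimates below 0. Every member's ranges overlapped between the labels, whereas they did not for 10.7% of all tested genes.

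In fasted mice, 0 of 10 members passed as well (adjusted *p* from 0.917 to 0.995), beside 0% of all tested genes, 0 had an unadjusted *p* under 0.05, beside 685 of 13812 genes, and DESeq2 called 0. Log2 fold changes ran from −1.04 for *Thrsp* (SE 0.70, interval −2.63 to 0.56) to 0.43 for *Mlxipl* (SE 0.24, interval −0.098 to 0.96), with a median of −0.12. *Acly* (−0.048, SE 0.31, interval −0.73 to 0.63) and *Acaca* (−0.046, SE 0.21, interval −0.50 to 0.41) had the estimates nearest 0. Ranges overlapped for all 10 members, whereas 12.2% of all tested genes had ranges that did not overlap.

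**Figure D3:**
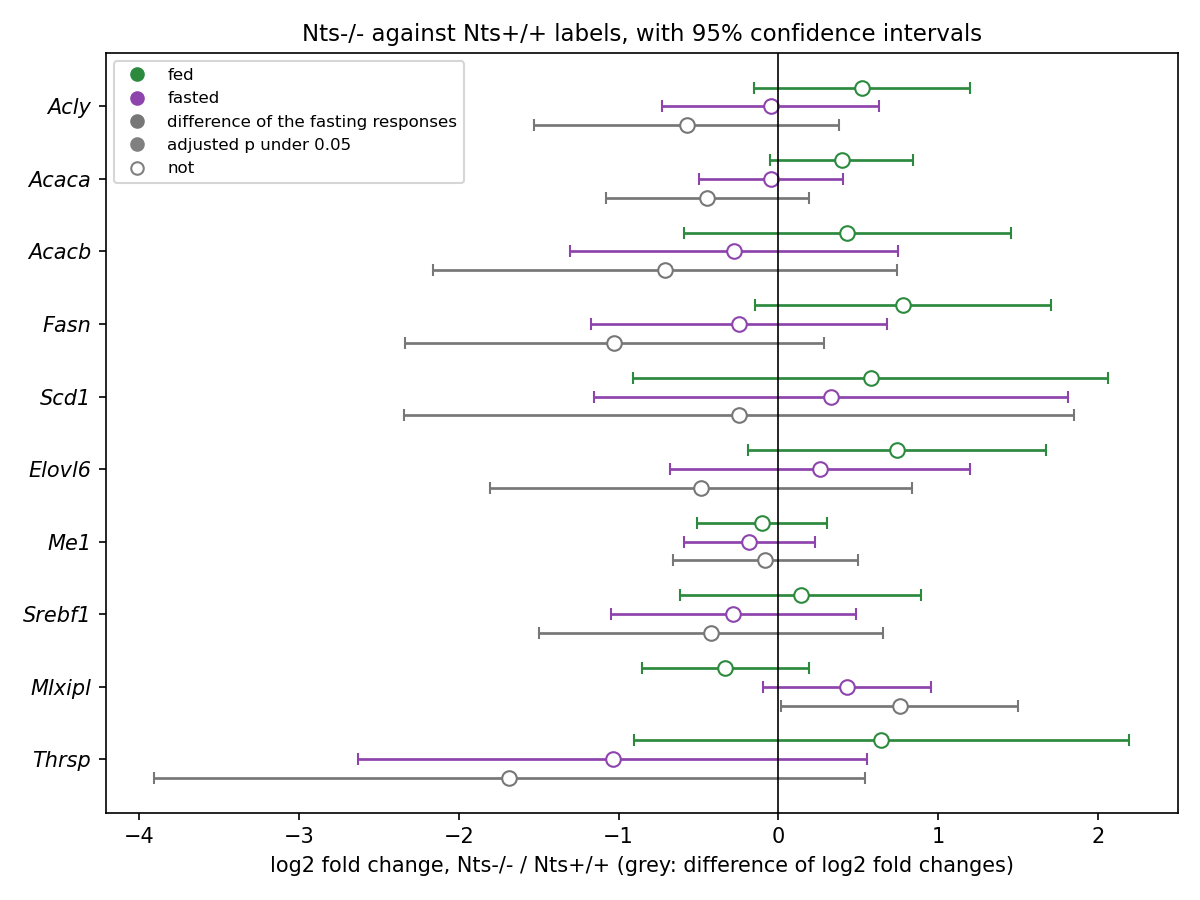
Log2 fold change of *Nts*-/- over *Nts*+/+ labels (horizontal axis) of the 10 lipogenic genes in fed (green) and fasted (purple) livers and the difference between the fasting responses (grey), with 95% confidence intervals from edgeR. No point has an adjusted p under 0.05, and only the grey *Mlxipl* interval, from 0.018 to 1.5, does not include 0.

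The fasting responses of the labels were compared by an interaction term. None of the 10 members passed (edgeR, adjusted *p* from 0.897 to 0.977), beside 0% of all tested genes, and DESeq2 called 0. The term was below 0 for 9 members, a lower estimated ratio of fasted to fed in mice labelled *Nts*-/-, with a median of −0.46 beside −0.020 over all genes. *Thrsp* had the lowest term (−1.68, SE 0.98, interval −3.91 to 0.54), followed by *Fasn* (−1.03, SE 0.59, interval −2.33 to 0.28). *Mlxipl* went the other way, with a term of 0.76 (SE 0.34, interval 0.018 to 1.5, unadjusted *p* = 0.0454, adjusted *p* = 0.897), and was the 1 member with an unadjusted *p* under 0.05, beside 663 of 13812 genes. Its term stayed between 0.50 and 1.01 when any 1 of the 12 mice was left out.

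The members shared much of their order among the mice of a group. Mouse 323 had the lowest value of the fed *Nts*+/+ mice for 10 of 10 members, and mouse 319 the lowest of the fed *Nts*-/- mice for 8 of 10, the exceptions being *Srebf1* and *Mlxipl*. Relative to the group mean, the median member stood at −0.58 log2 units in mouse 323 and at −0.43 in mouse 319. The median SD of the members between fed mice was 0.52 log2 units for the *Nts*+/+ and 0.38 for the *Nts*-/- label, beside 0.21 and 0.22 over all genes. In fasted mice it was 0.26 and 0.38, beside 0.20 and 0.18. Together the 10 genes took 0.343% of all counts in mouse 323, against 0.941% and 1.10% in the other fed *Nts*+/+ mice and 0.938% to 1.53% in fed *Nts*-/- mice, and 0.0766% to 0.188% in fasted mice. The 10 genes of the fasting-induced list had 5 genes highest and 4 lowest in mouse 323 within its group, and 5 highest and 1 lowest in mouse 319, while mouse 303 was lowest of its group for 9 of these 10.

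Mice 323 and 319 were also left out together, a choice made after seeing that their member values were low, so that the counts that follow are a description and lean towards a larger fasting difference. Without them, 8 members passed as lower when fasted in mice labelled *Nts*+/+ and 9 in mice labelled *Nts*-/-, the additional member being *Acacb* in both (−0.93, adjusted *p* = 0.0126 and −1.95, adjusted *p* = 0.000256). Over all tested genes, 2840 and 2852 passed in either direction without these mice, against 2501 and 2326 with them. Between the labels, 0 members passed in fed mice, in fasted mice or in the interaction. The *Elovl6* difference in fed mice then had the smallest adjusted *p* of the members (1.11, adjusted *p* = 0.0979), and the *Srebf1* difference was −0.11 in place of 0.14.

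**Figure D4:**
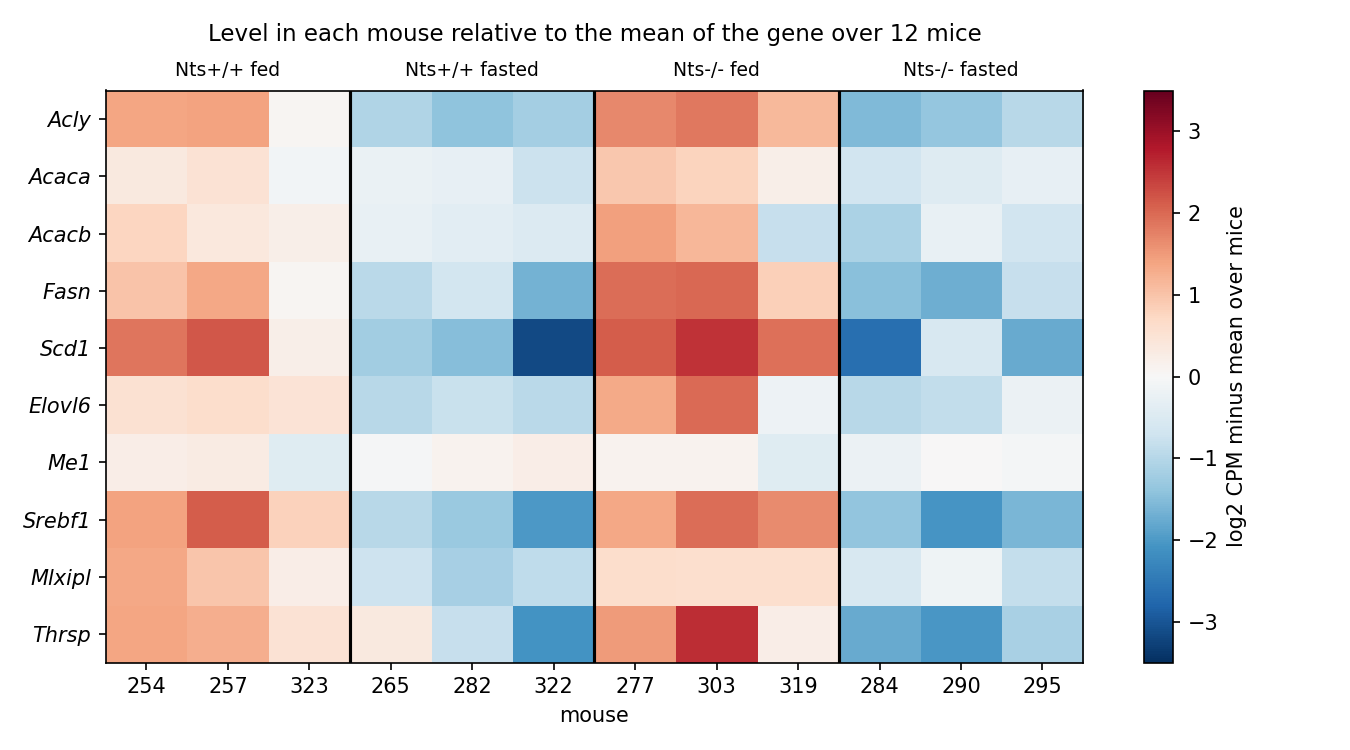
Log2 CPM of the 10 lipogenic genes (rows) in the 12 mice (columns, grouped by label), minus the mean of the gene over all mice; red is above and blue below that mean. Fed mice 323 and 319 are paler than the other fed mice for most genes, and the *Me1* row is pale in all mice.

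The genes around the pathway were described by 6 lists of their roles, also chosen with earlier results of these data known. Over all tested genes, 18.1% passed on fasting in mice labelled *Nts*+/+ and 16.8% in mice labelled *Nts*-/-, in either direction. The list of substrate supply held 22 genes of glycolysis, citrate export and NADPH production, all tested. Of these, 3 were higher and 11 lower in fasted mice labelled *Nts*+/+, and 4 higher and 10 lower in mice labelled *Nts*-/-. The citrate carrier *Slc25a1* (log2 fold change −0.78 and −0.96, in the order *Nts*+/+ and *Nts*-/-) and the NADPH-producing dehydrogenase *Idh1* (−0.68 and −0.80) were lower in both. *Pcx*, the pyruvate carboxylase also used in gluconeogenesis, was higher in both (1.07 and 1.08).

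Among 20 genes of SREBP control, 2 were higher and 3 lower in fasted mice labelled *Nts*+/+, and 1 was higher and 3 lower in mice labelled *Nts*-/-. These counts lie near the shares over all tested genes, 18.1% and 16.8%, and are not read as a response of the list. The INSIG proteins hold the SREBP complex in the endoplasmic reticulum, and their genes moved in opposite directions. *Insig1* stood at 333, 548 and 300 CPM in fed and 50.2, 39.6 and 48.6 CPM in fasted mice labelled *Nts*+/+ and was 8.53-fold lower (log2 fold change −3.09, adjusted *p* = 0.000426), against 12.6-fold in mice labelled *Nts*-/- (−3.66, adjusted *p* = 0.000141). *Insig2* was 3.20-fold higher in mice labelled *Nts*+/+ (1.68, adjusted *p* = 0.00984) and 4.11-fold in mice labelled *Nts*-/- (2.04, adjusted *p* = 0.00393). *Srebf2*, which encodes the factor of cholesterol synthesis, was lower in both (−0.64 and −1.29), by less than *Srebf1*. *Scap*, the SREBP escort, was lower in mice labelled *Nts*-/- (−0.48, adjusted *p* = 0.0216) and had a log2 fold change of −0.21 in mice labelled *Nts*+/+ (adjusted *p* = 0.294).

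A further list held 10 genes, the partner of ChREBP and targets of ChREBP and LXR. Of these, 1 was higher and 1 lower in fasted mice labelled *Nts*+/+, beside 18.1% of all tested genes in either direction. In mice labelled *Nts*-/-, 5 were higher and 1 lower, beside 16.8%. *Pnpla3*, which encodes a lipid-droplet lipase, had 5.58, 7.10 and 0.355 CPM in fed and 0.190, 0.297 and 0.136 CPM in fasted mice labelled *Nts*+/+, so that fed mouse 323 was close to the fasted mice. Its log2 fold change was −4.38 (adjusted *p* = 0.00873) in mice labelled *Nts*+/+. The fasted mice of that label were not far above the level of 3 counts (0.0833 to 0.13 CPM), so that the size of this change is uncertain. *Pnpla3* was lower in mice labelled *Nts*-/- too (adjusted *p* = 0.0103), where the fasted mice were at or near the level of 3 counts, so that no fold is given. *Txnip*, a glucose-responsive target of ChREBP, was higher when fasted (1.21, adjusted *p* = 0.0262 and 1.73, adjusted *p* = 0.00544), in the opposite direction to *Mlxipl*. Its ranges overlapped in mice labelled *Nts*+/+, with 106 CPM in fed mouse 254 and 104 CPM in fasted mouse 282, but not in mice labelled *Nts*-/-. The sterol transporters *Abcg5* and *Abcg8*, which LXR induces, were higher in mice labelled *Nts*-/- (0.92, adjusted *p* = 0.00817 and 0.97, adjusted *p* = 0.0103), and had 0.55 and 0.56 in mice labelled *Nts*+/+ (adjusted *p* = 0.0774 and 0.0965).

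Carboxylase control held 16 genes, of which 15 were tested, with 2 higher and 2 lower in fasted mice labelled *Nts*+/+ and 1 higher and 2 lower in mice labelled *Nts*-/-. The shares over all tested genes, 18.1% and 16.8% in either direction, were near these counts. *Mid1ip1*, a paralog of *Thrsp* that promotes polymerization of acetyl-CoA carboxylase, was 5.84-fold lower (log2 fold change −2.55, adjusted *p* = 0.00113) and 7.44-fold lower (−2.89, adjusted *p* = 0.000463) in mice labelled *Nts*+/+ and *Nts*-/-. *Trib3*, a pseudokinase linked to degradation of the carboxylase, was higher (1.49, adjusted *p* = 0.00557 and 1.72, adjusted *p* = 0.00207). The acyl-CoA binding protein *Dbi* was lower (−1.22, adjusted *p* = 0.000859 and −0.65, adjusted *p* = 0.0282).

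Downstream of palmitate, 16 of 17 genes were tested, with 2 higher and 3 lower in fasted mice labelled *Nts*+/+ and 1 higher and 5 lower in mice labelled *Nts*-/-. Beside these stand 18.1% and 16.8% of all tested genes in either direction. The acyl-CoA synthetase *Acsl3* was lower in both (log2 fold change −1.53, adjusted *p* = 6.05e-05 and −1.96, adjusted *p* = 8.13e-06), as were the elongase *Elovl1* (−0.52 and −0.91) and the desaturase *Fads1* (−0.65 and −0.93). *Dgat1*, which esterifies fatty acids into triacylglycerol, was higher in both (0.80 and 0.82). *Dgat2*, which acts at the same step, went the other way (−0.34, adjusted *p* = 0.114 and −0.57, adjusted *p* = 0.0148). Its fed means were 414 and 446 CPM, against 14.9 and 15.8 CPM for *Dgat1*. *Scd2*, a paralog of *Scd1*, stood at 2.10 to 9.52 CPM over all mice, far below *Scd1*, and was lower in mice labelled *Nts*-/- (−1.56, adjusted *p* = 0.00114) with −0.56 in mice labelled *Nts*+/+ (adjusted *p* = 0.141).

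For contrast, 10 genes that fasting is known to induce were listed, of which 5 were higher in mice labelled *Nts*+/+, 7 in mice labelled *Nts*-/-, and 0 lower. Over all tested genes, 8.91% and 7.70% passed as higher. *Cyp4a14*, an omega-hydroxylase of fatty acids, was 9.71-fold higher (log2 fold change 3.28) and 13.2-fold higher (3.72). *Fgf21*, a fasting hormone of the liver, was 7.77-fold and 7.84-fold higher, and *Cpt1a*, the gate of mitochondrial fatty acid entry, 2.89-fold and 3.18-fold. In none of the 6 lists did a gene pass between genotype labels or in the interaction (edgeR), beside 0% of all tested genes. At an unadjusted *p* under 0.05, the lists had from 0 genes to 5 of 20, the latter for SREBP control in fed mice, beside 876 of 13812 genes in that comparison.

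**Figure D5:**
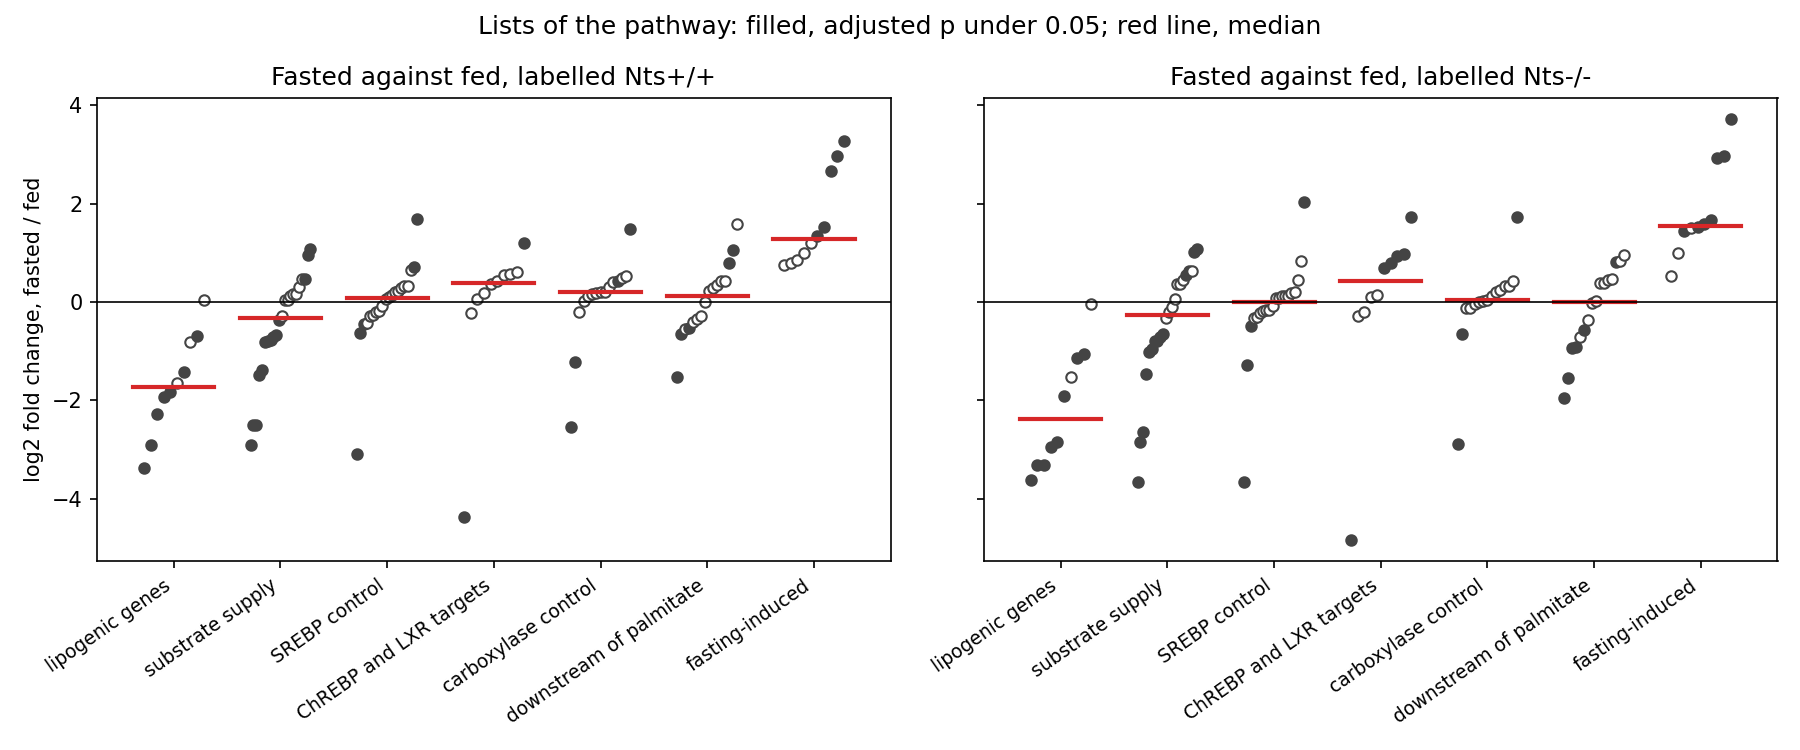
Log2 fold change of fasted over fed livers (vertical axis) of each gene of the lipogenic set and of the 6 lists around it, for mice labelled *Nts*+/+ (left) and *Nts*-/- (right); filled points have an adjusted p under 0.05 and red lines are list medians. The lipogenic set lies at medians of −1.74 and −2.38 and the fasting-induced list at 1.27 and 1.55.

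The genes most like each member over the 12 mice were found by the root mean square difference of log2 CPM after centring each gene, as a description. *Fasn* was second for *Acly* (0.33 log2 units), and *Acly* was first for *Fasn*, followed by *Lss* (0.37), an enzyme of sterol synthesis. *Srebf1* was nearest to *Insig1* (0.40), *Pmvk* (0.41) and *Mid1ip1* (0.41). *Thrsp* was nearest to *Fasn* (0.53), and *Scd1*, with the widest range, to *Aqp8* (0.65). *Mlxipl* was nearest to *Tmem150a* (0.26), *Zfp101* (0.27) and *Gbp8* (0.29). Another member was among the nearest 3 genes of *Acly*, *Fasn*, *Scd1* and *Thrsp*, and of no other member. The measure covers fed and fasted mice together.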

How the data were processed

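Liver RNA of 12 mice was sequenced. Per the labels, the authors' processing notes name Trimmomatic, RSEM and the GRCm38 build; versions, library strandedness and read layout are not given in the sources used here. The deposited table holds expected counts for 48795 genes, of which 7.94% of values were not whole; they were rounded. In R 4.3.3, edgeR 4.0.16 (with limma 3.58.1) kept 13812 genes (filterByExpr), applied TMM normalization and compared 4 group means by its quasi-likelihood test with robust settings. CPM in the report is TMM-normalized, and marker and *Nts* CPM is scaled to total counts only. Adjusted *p* under 0.05 passed. A prior count of 2 was used for log2 CPM in descriptions. Mice are the replicates.

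The members and lists were chosen with earlier results of these data known. Genes named are the 10 members, *Nts*, up to 5 genes of smallest *p* per list in each fasting comparison and the 3 nearest genes of each member; a few of these are not reported here. *Lep*, *Retn*, *Adipoq*, *Lyve1* and *Spp1* are named as markers, and *Dgat2* is named beside *Dgat1*. Of the listed genes, *Cop1* was not found by its symbol. Alternatives were RLE and upper-quartile normalization, DESeq2 1.42.0, leaving out mitochondrially encoded genes, testing without the filter or with a minimum of 10 counts per mouse, fitting the compared mice alone, a threshold of 0.10, a minimum log2 change of 1 in size, and leaving out each mouse. The model was tested on simulated data.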

Additional observations from a re-analysis of the deposited data

How the results depend on the processing

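Members called as lower when fasted numbered 5 to 8 for the *Nts*+/+ label and 6 to 9 for the *Nts*-/- label over all alternatives, and 0 between labels or in the interaction. *Acly*, *Fasn*, *Scd1*, *Srebf1* and *Mlxipl* passed under every alternative fit for both labels, and *Acaca* also for *Nts*-/-. The count over all genes was 911 and 915 with a minimum log2 change of 1 in size, and 1224 to 2418 and 1358 to 2631 when 1 mouse was left out. It was lowest without mice 282 and 277, and also moved by more than 1.5 times without 254 (1326), 257 (1596), 284 (1523) or 290 (1365).

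Between labels in fed mice, the count over all genes was 1 without a count filter, 12 with DESeq2, 0 to 2 with 1 mouse left out (2 without 323 or 319) and 34 without both mice 323 and 319, a choice made after seeing the data. In fasted mice it was 4 with DESeq2 and 1 with only those mice fitted. For the interaction it was 3 with DESeq2, 0 to 1 with 1 mouse left out (1 without 323) and 6 without mice 323 and 319. The cause was not tested.

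*Elovl6* lost its *Nts*+/+ call without a count filter (adjusted *p* = 0.112). *Acacb* gained its *Nts*-/- call with upper-quartile normalization, a minimum of 10 counts per mouse or DESeq2.

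Reversals of sign concerned estimates that did not pass. *Me1* on fasting was -0.0023 with upper-quartile normalization and -0.15 without mice 323 and 319 (label *Nts*+/+). With 1 mouse left out it ran from -0.15 to 0.17 (*Nts*+/+) and -0.20 to 0.053 (*Nts*-/-). Between labels in fed mice, leaving out 1 mouse gave -0.29 to 0.056 for *Me1*, -0.12 to 0.55 for *Srebf1* and -0.10 to 1.05 for *Thrsp*, and *Srebf1* was -0.11 without mice 323 and 319. In fasted mice it gave -0.23 to 0.062 for *Acly*, -0.19 to 0.046 for *Acaca*, -0.56 to 0.0067 for *Fasn*, -0.40 to 0.68 for *Scd1* and -0.017 to 0.39 for *Elovl6*. In the interaction it gave -0.98 to 0.14 for *Scd1*, -0.24 to 0.11 for *Me1* and -0.88 to 0.056 for *Elovl6*, and *Scd1* was 0.020 without mice 323 and 319. Other scalings moved the median of all genes by less than 0.1 log2 units. No paired analysis was possible because the labels number the mice individually and share no replicate number between groups.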
